A study of Rattus norvegicus with 2 samples.

Results

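Klra22 is a gene of the rat Ly49 family, and the cells described here are the cardiac leukocytes in which its transcript was detected outside B cells, developing lymphocytes, macrophages and neutrophils. They were selected on their measured UMIs, so the genes of the rule are no finding about them. A cell was taken when it had at least 200 detected genes, at most 20% mitochondrial UMIs and at least 1 Klra22 UMI. It also had 0 UMIs of Cd79b and of Rag1, at most 2 UMIs of C1qa, C1qb and C1qc together, and S100a8 plus S100a9 under 2% of its UMIs. A UMI, or unique molecular identifier, marks 1 captured transcript. Of 29949 barcodes, 29688 passed the limits on genes and mitochondrial UMIs, and 593 of those were Klra22-gated cells. The gate held 264 of the 14137 passing cells of library 1 (1.87%, 1.65 to 2.10) and 329 of the 15551 of library 2 (2.12%, 1.90 to 2.35). Intervals in parentheses are 95% intervals, exact binomial for shares and exact Poisson for levels, and they cover counting error only.

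The series profiled CD45+ leukocytes sorted from left ventricles of wild-type rats 7 days after surgery for myocardial infarction (MI), infarcted and surrounding tissue together. The labels give 1 sample to the group MI and 1 to the group MI+PUR-hAESC, for which the series title names a patch of human amniotic epithelial stem cells on a polyurethane scaffold, and do not say how many animals each sample pools. Both samples were deposited as 1 matrix of 3′ single-cell counts, whose barcodes end in suffix 1 or 2, called library 1 and library 2 here. Neither suffix could be tied to a group, and with 1 library on each side no difference was tested.

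Ly49 receptors are lectin-like proteins on the surface of natural killer (NK) cells and of some T cells, and many of them recognise classical or non-classical MHC class I molecules. Inhibitory members carry a signalling motif in their cytoplasmic tail, while activating members pair with an adaptor protein such as the product of Tyrobp. In rat gene names i stands for inhibitory, s for stimulatory and si for members with features of both, and single NK cells carry different combinations of them.

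The gene lies within the Ly49 cluster on rat chromosome 4. In the order of RefSeq genes (GRCr8), Ly49i5, Klra22, Ly49s6, Ly49s4 and Ly49i4 follow one another. The bases before the start sites of Klra22 and of its neighbour Ly49s6 are shown because these transcripts were found in the same cells. Each line holds 250 bases before the start site from RefSeq (GRCr8), Klra22 at chr4:165743026-165743275 and Ly49s6 at chr4:165790071-165790320, both on the minus strand, with the longest run that they share in capitals.
Klra22: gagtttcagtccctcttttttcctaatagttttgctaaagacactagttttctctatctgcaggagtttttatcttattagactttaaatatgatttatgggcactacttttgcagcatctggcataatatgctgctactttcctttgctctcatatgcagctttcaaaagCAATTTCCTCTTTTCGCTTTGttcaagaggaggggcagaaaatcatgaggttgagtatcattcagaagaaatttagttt
Ly49s6: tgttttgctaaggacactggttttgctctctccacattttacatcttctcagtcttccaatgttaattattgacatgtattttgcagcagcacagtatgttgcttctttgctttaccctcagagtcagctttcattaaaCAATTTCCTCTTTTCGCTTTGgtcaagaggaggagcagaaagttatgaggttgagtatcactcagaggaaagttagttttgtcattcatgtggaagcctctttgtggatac
The shared run is 21 bases long and ends 58 bases before the start site of Klra22 and 90 bases before that of Ly49s6. On either strand it is in 4 of 27457 promoters of the same length (0.0146%), among them 3 of 19 Ly49 promoters, those of Klra22, Ly49s6 and Ly49si1. Over an alignment of the 250 bases, the promoter of Ly49s6 was identical to that of Klra22 at 71.6% of positions, that of Ly49si1 at 79.6%, that of Ly49s5 at 72.4% and that of Ly49i4 at 55.2%. The most alike was that of Ly49i2, at 81.2%, a gene with 0 UMIs in gated cells. Longer runs than that of Ly49s6 were shared with Klra22 by Ly49i5 (35 bases), Klra5 (34), Ly49i2 (27), Klra1 (24) and Ly49si1 (24). The likeness is thus not particular to Klra22 and Ly49s6, and their match is a description of these sequences. Because the family's genes are alike, reads can be split between them or lost in counting, and levels of single Ly49 genes are uncertain for that reason.

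Klra22 was a low-count transcript in the cells it marks. Library 1 held 764 Klra22 UMIs in the gate, at most 12 in a cell, and library 2 held 971, at most 13 in a cell. A single UMI placed 92 cells of library 1 (34.8%) and 108 of library 2 (32.8%) in the gate, 49 and 72 cells had 2 UMIs, and 123 and 149 cells had 3 or more. Gated cells had a median of 5359 UMIs and 1928 genes in library 1 and 5830 UMIs and 1994 genes in library 2, against 4703 and 4754 UMIs in Klra22-negative cells within the same limits. Before the limits, 320 and 409 cells had a Klra22 UMI. Cd79b removed 25 and 45 of them, C1q 20 and 20, S100a8 and S100a9 14 and 9, and Rag1 0 and 14, with some cells beyond more than 1 limit. Just inside the C1q limit stood 4 and 12 cells with 2 UMIs, and no cell with 3 UMIs stood just outside it in either library.

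Among gates defined without Klra22, its transcript was found more often in CD8 T cells, and in other T cells, than in NK cells of library 1, and more often in CD8 T cells than in NK cells of library 2. This is a description, since the rule used Klra22. With each cell thinned at random to 1500 UMIs, 4.91% of Cd3e+ Cd8b+ Ncr1- cells (3.72 to 6.34) in library 1 and 4.11% (3.19 to 5.20) in library 2 had a Klra22 UMI. In Ncr1+ Cd3e- cells, the NK gate, the thinned shares were 1.37% (0.711 to 2.39) and 1.66% (1.01 to 2.55). The intervals of the CD8 T gate and the NK gate lay apart in both libraries. Cd3e+ Ncr1- cells without Cd8b stood at 3.62% (2.64 to 4.82) and 2.48% (1.83 to 3.27), and their intervals overlapped those of the CD8 T gate in both libraries and that of the NK gate in library 2. Cells with UMIs of both Cd3e and Ncr1 reached 6.78% (1.88 to 16.5) and 5.98% (3.02 to 10.4), and Cd4+ Cd3e+ cells without Cd8b 0.623% and 0.930%. As a background, B cells stood at 0.711% and 0.619%, macrophages at 0.349% and 0.124%, and neutrophils at 0.127% and 0.169%. The intervals of the Cd4+ shares (0.0755 to 2.23 and 0.254 to 2.36) overlap those of B cells (0.307 to 1.40 and 0.354 to 1.00), as does that of the NK gate in library 1. Without thinning, the CD8 T gate stood at 9.96% and 8.17% and the NK gate at 3.68% and 4.26%, at medians of 4944 and 5480 UMIs in the first and 4516 and 4990 in the second, against 2.15% and 1.69% in B cells at 3151.5 and 3211 UMIs.

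**Figure D1:**
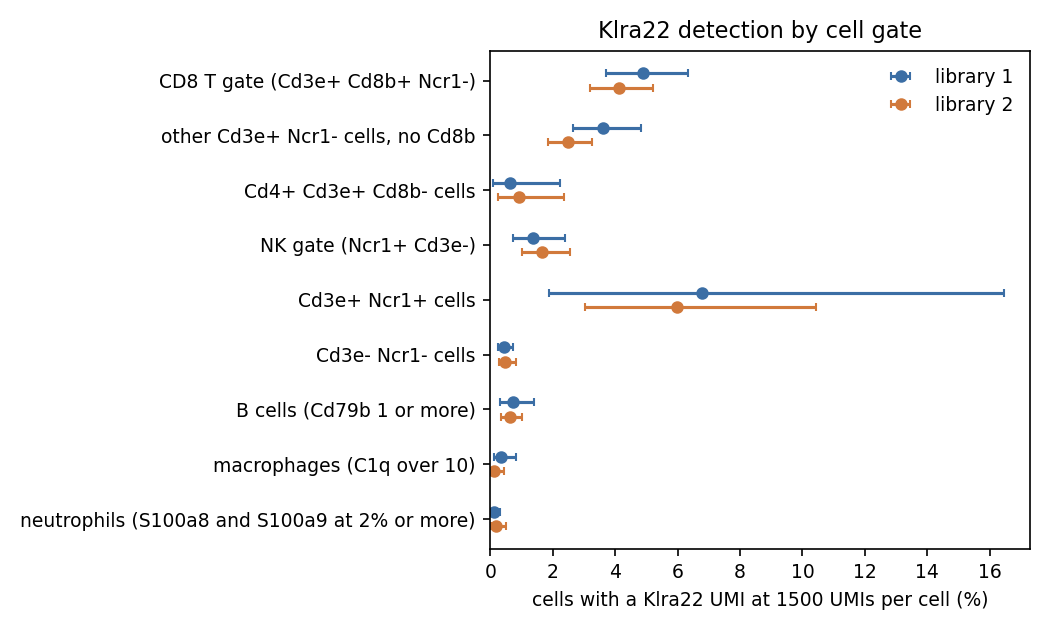
Share of cells with a Klra22 UMI after thinning to 1500 UMIs per cell (x axis, percent), for gates set on other genes (y axis); points are libraries 1 and 2 and bars are exact 95% binomial intervals. The CD8 T gate, at 4.91% and 4.11%, lies above the NK gate, at 1.37% and 1.66%, while macrophages and neutrophils lie near 0.

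Most Klra22-gated cells carried T cell transcripts. Cd3e, a chain of the T cell receptor complex, was found without the NK receptor gene Ncr1 in 192 gated cells of library 1 (72.7%, 66.9 to 78.0) and 224 of library 2 (68.1%, 62.7 to 73.1). Of these cells, 112 and 135 also had Cd8b, which marks conventional CD8 T cells. Ncr1 without Cd3e was found in 33 cells (12.5%, 8.76 to 17.1) and 52 cells (15.8%, 12.0 to 20.2). Both transcripts were in 11 cells (4.17%) and 19 cells (5.78%), and neither was in 28 cells (10.6%) and 34 cells (10.3%). The shares of all 4 classes had overlapping intervals between libraries.

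Counted gene by gene, Cd3e was in 76.9% of gated cells of library 1 (71.3 to 81.8) and 73.9% of library 2 (68.8 to 78.5), Cd8b in 47.3% and 44.7%, Cd8a in 80.7% and 79.9%, and Ncr1 in 16.7% and 21.6%. Any of Cd3e, Cd3d and Cd3g was in 79.9% and 78.4%. Cd4 was in 5.68% and 5.17%. As a background, neutrophils at medians of 2304 and 2730 UMIs had Cd3e in 3.64% and 9.43%, Cd8b in 1.57% and 4.61% and Ncr1 in 5.66% and 6.92% of cells. At 1500 UMIs per cell, which left out 4 and 3 gated cells, Cd3e was in 53.1% and 50.3% of gated cells, Cd8b in 25% and 15.3% and Ncr1 in 7.31% and 8.90%, against 2.11% and 4.46%, 0.685% and 1.52%, and 3.15% and 3.33% in neutrophils. Macrophages had Cd8b in 4.53% and 4.42% and B cells in 3.29% and 4.88% after thinning. Cells with 2 or more Klra22 UMIs had Cd3e more often than cells with 1, 82.0% against 67.4% in library 1 and 79.2% against 63.0% in library 2, at medians of 5623 against 4969 UMIs and 5965 against 5676.5 UMIs.

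**Figure D2:**
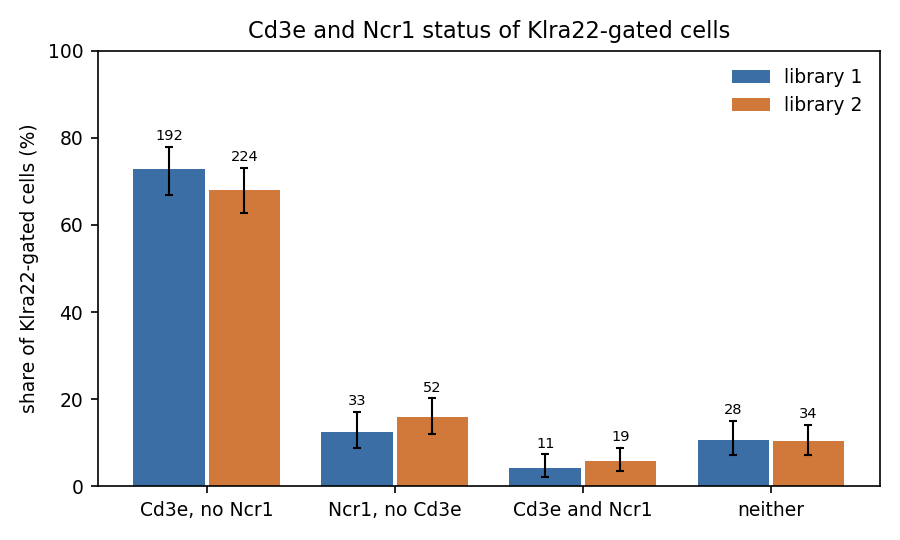
Share of Klra22-gated cells (y axis, percent) in each of 4 classes set by UMIs of Cd3e and Ncr1 (x axis), by library; bars are shares, lines exact 95% binomial intervals and numbers the cells. Cells with Cd3e and no Ncr1 form the largest class in both libraries, 72.7% and 68.1%.

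The label of these cells as lymphocytes was checked against its markers. Nkg7, a protein of cytotoxic granules, was in 87.9% of gated cells of library 1 and 84.8% of library 2, against 39.2% and 50.3% of Klra22-negative cells within the limits. It was also in 87.8% and 75.8% of Klra22-negative cells of the CD8 T gate and 96.2% and 97.8% of those of the NK gate. Ly49s6 was in 71.2% and 79.3% of gated cells, against 6.63% and 14.2% of Klra22-negative cells within the limits. In the CD8 T gate without Klra22 it was in 20.8% and 39.1%. Of the NK marker list, Klrd1, the partner chain of NKG2 receptors, was in 92.4% and 92.4% of gated cells and Klrb1a, an NKR-P1 receptor, in 78.0% and 77.8%. In the CD8 T gate without Klra22, Klrd1 was in 62.2% and 50.7% and Klrb1a in 42.0% and 32.2% of cells. In the NK gate without it, Klrd1 was in 93.2% and 93.6% and Klrb1a in 95.7% and 96.9%. These shares are unthinned, and gated cells were deeper. At 1500 UMIs per cell Klrd1 was in 64.6% and 64.4% of gated cells. The NK gate without Klra22 then had it in 81.1% and 73.2%, and the CD8 T gate without Klra22 in 34.8% and 29.0%. Thinned Klrb1a in library 1 was in 45.4% of gated cells, 81.8% of that NK gate and 18.7% of that CD8 T gate. Ncam1 had 0 UMIs in gated cells of both libraries. Of 9 markers of gamma delta T cells, 6 were measured, and none reached 20 CPM (a gene's UMIs relative to all UMIs of the cells summed, the scale of all levels below). Rag2, a marker of developing lymphocytes, had 0 UMIs in both libraries. The rule had already removed cells with Rag1, so this is no separate check of the label. No marker of mast cells, of stromal cells or of erythroid cells reached 20 CPM. The gate therefore joins cells with T cell transcripts and cells with NK transcripts, and the classes are described apart.

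The Cd3e-only and Ncr1-only classes differed in T cell and NK genes. Klra22, which chose the cells, stood at 442 CPM (408 to 480) in Cd3e-only cells of library 1 and 381 CPM (301 to 476) in Ncr1-only cells, and at 418 CPM (388 to 449) and 301 CPM (244 to 366) in library 2. Its intervals overlapped in library 1 and lay apart in library 2. Cd3e-only cells were higher past 2-fold in both libraries for 81 of 5331 genes (1.52%) and lower for 92 (1.73%). These counts include Cd3e and Ncr1, which set the classes. Of 12 T cell markers, 11 were higher in Cd3e-only cells of both libraries, 8 of them past 2-fold, and of 13 NK markers 12 were lower, 5 of them past 2-fold, against 33.4% of all genes higher and 28.5% lower in both libraries. The 8 include Cd3e and the 5 include Ncr1, whose directions were fixed by the classes. Ratios are log2 of CPM plus 10.

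Among the genes higher in Cd3e-only cells were other chains of the T cell receptor complex. Of 17 signalling adaptors, 2 were higher in Cd3e-only cells of both libraries, 1 past 2-fold, and 10 were lower, 3 past 2-fold. Cd3d stood at 743 and 664 CPM in Cd3e-only cells, against 0 and 3.04 CPM in Ncr1-only cells. Cd3g stood at 1053 and 909 CPM against 9.90 and 15.2 CPM, and Cd8b at 259 and 222 CPM against 0 and 6.07 CPM. Sit1, an adaptor of T cell receptor signalling, and Slamf6, a receptor of lymphocytes, had 0 UMIs in the Ncr1-only cells of both libraries, at 64.1 and 73.8 CPM and 61.1 and 61.4 CPM in Cd3e-only cells. S1pr1, the receptor through which lymphocytes leave tissues, stood at 82.7 and 115 CPM against 4.95 and 6.07 CPM. The remaining gene of the 8 highest was the adaptor gene Sh3kbp1, at 204 and 216 CPM against 19.8 and 24.3 CPM.

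Among the genes higher in Ncr1-only cells were the adaptor of activating receptors and several granule genes. Of 15 cytotoxic granule genes, 9 were higher in Ncr1-only cells of both libraries, 6 past 2-fold, and 4 were higher in Cd3e-only cells, 2 past 2-fold. Tyrobp stood at 6512 and 6346 CPM in Ncr1-only cells, against 972 and 692 CPM in Cd3e-only cells, with log2 ratios of Cd3e-only over Ncr1-only cells of -2.73 and -3.18. Ccl5, a chemokine of effector lymphocytes, stood at 20640 and 21250 CPM against 3961 and 4353 CPM. Gzmk, a granule protease, stood at 1564 and 1728 CPM against 387 and 323 CPM, and the mast cell protease relatives Mcpt8l3 and Mcpt1l4 had log2 ratios of -2.99 and -2.45, and of -2.11 and -2.11. Fcrl6, a receptor of cytotoxic lymphocytes, stood at 401 and 164 CPM against 78.2 and 34.1 CPM. Prf1, the pore-forming perforin, stood at 668 and 871 CPM against 183 and 133 CPM. Of the Ly49 genes, Ly49s7 was lower in Cd3e-only cells, at 43.9 and 30.1 CPM against 322 and 237 CPM, while Ly49i4 stood at 229 and 393 CPM against 267 and 352 CPM, with overlapping intervals in both libraries.

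The class with neither transcript had levels nearer to the Ncr1-only than to the Cd3e-only class for Tyrobp, Ccl5, Prf1 and Gzmm. It also held myeloid transcripts in library 1, with Lyz2 at 6312 and 213 CPM, against 1678 and 304 CPM in Ncr1-only cells, and Apoe at 3135 and 406 CPM, against 153 and 115 CPM, and their part in the levels was not tested. Its 28 and 34 cells had Tyrobp at 5230 and 4862 CPM, Ccl5 at 17943 and 22691 CPM, Prf1 at 664 and 787 CPM and Gzmm, another granule protease, at 2526 and 3005 CPM. Cd3g stood at 130 and 135 CPM and Cd3d at 54.8 and 90.3 CPM in them, between the other classes. Any CD3 chain was found in 7 of 28 cells (25%) and 10 of 34 (29.4%), at medians of 4779.5 and 4680.5 UMIs. Only Cd3d and Cd3g can count there, since the class has no Cd3e. In B cells any chain, Cd3e included, was in 18.1% and 25.2%, at medians of 3151.5 and 3211 UMIs. The B cell shares are therefore not a like measure. The cells with both Cd3e and Ncr1 had medians of 10500 and 10138 UMIs, against 5299 and 5992 in Cd3e-only cells, and 3 of 11 and 2 of 19 were called doublets by Scrublet, which were kept. Tyrobp stood at 3164 and 2993 CPM in them and Cd3g at 558 and 663 CPM, between the Cd3e-only and the Ncr1-only class.

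Gated cells usually carried further Ly49 transcripts. Of the 14 Ly49 symbols measured, 10 had at least 1 UMI in gated cells, and Ly49i2, Ly49i7, Ly49si2 and Ly49si3 had 0 UMIs. At least 1 other Ly49 gene was found in 92.0% of gated cells of library 1 (88.1 to 95.01) and 91.8% of library 2 (88.3 to 94.5), and at least 3 in 43.9% and 48.0%. The share with at least 1 was 36.0% and 47.3% in Klra22-negative cells of the CD8 T gate and 21.4% and 21.1% in those of the NK gate. At 1500 UMIs per cell these shares were 70.0% and 72.7% in gated cells, 15.9% and 24.9% in the CD8 T gate without Klra22, and 11.9% and 11.7% in the NK gate without it. As a background, B cells stood at 10.6% and 13.6% and macrophages at 46.1% and 57.4% after thinning. Ly49si1 was in 37.7% and 45.4% of thinned macrophages and Klra2 in 9.69% and 15.0%, so that these genes were not limited to lymphocytes. Ly49s6 was in 0.488% and 1.68% of thinned macrophages, against 35% and 43.9% of thinned gated cells.

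The levels of the family within gated cells differed by gene and in part by library. For Klra22 itself, library 1 gave 420 CPM (391 to 451) and library 2 gave 393 CPM (368 to 418). Ly49s6 stood at 307 CPM (282 to 333) and 430 CPM (405 to 457), and the inhibitory-type Ly49i4 at 229 CPM (208 to 252) and 389 CPM (365 to 415). The intervals of the libraries overlapped for Klra22 and lay apart for Ly49s6 and Ly49i4, both higher in library 2. Ly49si1 stood at 134 and 113 CPM, Ly49s5 at 109 and 121 CPM, and Ly49s7 at 101 and 71.2 CPM. Klra1 stood at 50.6 CPM (40.8 to 62.0), from 92 UMIs in 22 cells, and 13.7 CPM (9.52 to 19.2), from 34 UMIs in 10 cells, the only 1 of the 8 Ly49 genes at 20 CPM or more that lay past 2-fold between libraries. Klra5, Ly49s4 and Klra2 stayed between 5.50 and 20.6 CPM. CPM of 3′ counts compare a gene between cells, and an order of genes by CPM is not one of transcript numbers where copies share reads.

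The share of cells with another Ly49 gene that also had Klra22 depends on how many cells had that gene detected. Of 639 cells within the limits that had a Ly49s6 UMI in library 1, 29.4% (25.9 to 33.1) also had Klra22, and of 1408 in library 2, 18.5% (16.5 to 20.7). Ly49s5 had 45.8% and 44.1% of its 227 and 315 cells in the gate, and Ly49i4 had 45.2% and 31.8% of its 294 and 613 cells there. Counted over gated cells, Ly49s6 was in 71.2% and 79.3% and Ly49s5 in 39.4% and 42.2%. Ly49si1 had 5.29% and 4.64% of its 1833 and 2132 cells in the gate.

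Within the CD8 T gate, cells with Klra22 were higher than cells without it in several NK receptor genes. The comparison set 112 and 135 gated cells against 1012 and 1518 Klra22-negative cells, all Cd3e+ Cd8b+ Ncr1- and within the same limits, at medians of 6043.5 and 6047 against 4845 and 5382 UMIs. Past 2-fold in both libraries, 29 of 5306 genes (0.547%) were higher and 6 (0.113%) were lower. The lower count was 27 with a minimum of 2 Klra22 UMIs, 25, beside 53 higher, in cells of 1500 to 8000 UMIs, 13 with a pseudocount of 1 CPM and 10 without cells with myeloid transcripts. Klra22 is among the former by the choice of cells, and all values are descriptions. The rule for naming genes was applied to this gate after values were seen.

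Of the 5 other Ly49 genes at 20 CPM or more, all were higher in both libraries and 4 lay past 2-fold in both. That minimum was read in the higher set of cells, so a gene could pass on its level with Klra22 alone, as Ly49s5 did. Genes low in both sets were not counted, so the filter favours this outcome. Ly49s5 stood at 88.9 and 96.6 CPM with Klra22 and 2.79 and 4.93 CPM without it, Ly49i4 at 190 and 404 CPM against 24.8 and 38.7 CPM, and Ly49s6 at 241 and 406 CPM against 58.5 and 174 CPM. Klrb1c, an activating NKR-P1 receptor, stood at 121 CPM (99.7 to 147) and 113 CPM (94.6 to 135), against 22.7 CPM (19.3 to 26.6) and 13.4 CPM (11.2 to 15.9). Klrb1a had log2 ratios of 0.74 and 1.11, Klrd1 of 0.67 and 0.91, and Klrk1, which encodes NKG2D, of 0.30 and 0.15. Klrc1, the inhibitory NKG2A receptor, went the other way, at 24.7 and 11.5 CPM with Klra22 against 54.9 and 42.0 CPM without it. Of the 10 NK markers at 20 CPM or more, 8 were higher in both libraries and 1, Cd244, past 2-fold in both, against 29.3% of all genes higher and 32.9% lower in both. Cd244, the receptor 2B4, stood at 87.7 and 136 CPM against 23.2 and 26.5 CPM.

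Genes outside the receptor families also differed in the CD8 T gate. Magohb, a component of the exon junction complex, stood at 259 and 292 CPM with Klra22 and 24.6 and 37.2 CPM without it, log2 ratios of 2.96 and 2.68. In the RefSeq order on chromosome 4 it follows the last Ly49 gene, Klra2, with 2 genes between them. Xcl1, a chemokine that attracts cross-presenting dendritic cells, stood at 345 CPM (308 to 386) and 553 CPM (510 to 598) against 109 CPM (101 to 117) and 202 CPM (194 to 212). Pdcd1lg2, which encodes the ligand PD-L2, had log2 ratios of 1.98 and 2.06, Layn, a hyaluronan receptor gene, of 2.56 and 1.82, Srgap3 of 3.40 and 1.83, and Mcpt1l4 of 2.44 and 1.47.

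Some effector chemokine and granule genes were lower with Klra22 in the CD8 T gate. Of 6 cytokine and chemokine genes, 3 were lower in both libraries and 2 higher, Ccl5 past 2-fold lower and Xcl1 past 2-fold higher. Ccl5 stood at 4789 CPM (4646 to 4935) and 5410 CPM (5275 to 5547) with Klra22, against 11538 CPM (11457 to 11619) and 13701 CPM (13627 to 13774) without it. Gzmk stood at 488 and 378 CPM against 897 and 923 CPM, Gzma at 172 and 196 CPM against 325 and 404 CPM, and Ccl4 at 2122 and 3053 CPM against 3894 and 4961 CPM. Prf1 had log2 ratios of -0.50 and -0.74. Of the 16 cytotoxic granule genes, 8 were lower in both libraries and 4 higher in both, with medians of -0.17 and -0.10, none past 2-fold in both, against medians of 0.00 and -0.02 over all 5306 genes. Themis, which sets the T cell receptor's signalling threshold in thymocytes, stood at 31.5 and 37.2 CPM against 95.8 and 98.6 CPM. Of the 12 T cell markers, 9 were lower in both libraries, against 32.9% of all genes. The 12 include Cd3e and Cd8b, which set the gate on both sides and are no finding. The others of the 10 lowest were Eno3, Plcg1, Hopx, Lime1 and Tent5a, with log2 ratios between -0.76 and -1.45.

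Within the NK gate, the Ly49 genes that reached 20 CPM were higher in cells with Klra22. The comparison set 33 and 52 gated cells against 864 and 1169 Klra22-negative Ncr1+ Cd3e- cells, at medians of 5712 and 5398.5 against 4487.5 and 4940 UMIs. Past 2-fold in both libraries, 16 of 5375 genes (0.298%) were higher, Klra22 among them, and 25 (0.465%) lower. The lower count was 60 with a minimum of 2 Klra22 UMIs and 49 with a pseudocount of 1 CPM. All 8 other Ly49 genes at 20 CPM or more were higher past 2-fold in both libraries. That minimum was read in the higher set of cells, so a gene could pass on its level in gated cells alone, as Klra1 did. Genes low in both sets were not counted, so the filter favours this outcome. Ly49i4 stood at 267 CPM (201 to 349) and 352 CPM (291 to 422) with Klra22 against 8.57 CPM (6.03 to 11.8) and 23.1 CPM (19.5 to 27.0) without it. Ly49s6 stood at 440 and 589 CPM against 54.0 and 47.0 CPM, and Ly49s7 at 322 and 237 CPM against 37.1 and 10.3 CPM. Klra1 stood at 168 and 78.9 CPM against 5.33 and 2.28 CPM, from 8 and 5 gated cells.

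Lectin receptors outside the Ly49 family went both ways in the NK gate. Klri2 stood at 223 and 376 CPM with Klra22 against 101 and 98.4 CPM without it, while its relative Klri1 stood at 203 and 167 CPM against 420 and 456 CPM. Klrc1 stood at 9.90 CPM (1.20 to 35.7) and 15.2 CPM (4.93 to 35.4) against 96.8 and 92.4 CPM, from 2 and 5 UMIs in gated cells. The intervals of Klri1, Klri2 and Klrc1 lay apart between cells with and without Klra22 in both libraries. Klrd1, Klrk1 and Klre1 had log2 ratios between -0.23 and 0.09, and of the 13 NK markers at 20 CPM or more none lay past 2-fold in both libraries. The 13 include Ncr1, which set the gate on both sides. Cd7, a surface protein of T and NK cells, stood at 356 and 501 CPM against 168 and 173 CPM, Fcrl6 at 401 and 164 CPM against 96.4 and 79.4 CPM, and Magohb at 589 and 404 CPM against 138 and 76.8 CPM. Mcpt1l4 had log2 ratios of 1.41 and 1.27 and Mcpt8l3 of 1.12 and 1.08.

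Lower with Klra22 in the NK gate was Rora, a transcription factor of innate lymphoid cells, at 24.7 and 48.6 CPM against 136 and 111 CPM. The others of the 10 lowest were Fabp4, Apoe, Il1b, Samhd1, Cxcl2, Hist1h1b and Cd93. Without cells with myeloid transcripts, Apoe had log2 ratios of -0.39 and 0.0691, Il1b of -0.63 and -1.33 and Cxcl2 of -0.58 and -1.10, in place of -1.70 and -2.15, -1.36 and -1.31, and -1.09 and -2.35. Apoe is in the macrophage list that helped to choose the cells left out, so its shift is partly set by that choice. Fabp4, a lipid carrier of macrophages and endothelium, had 0 UMIs in gated cells, with levels of 106 and 71.5 CPM without Klra22. Of the 16 cytotoxic granule genes, 8 were lower in both libraries and 2 higher, against 34.7% of all genes lower and 20.8% higher. Gzma, 1 of the remaining 6, stood at 124 CPM (80.1 to 183) in gated cells of library 1 against 663 CPM (639 to 688), and at 1072 CPM (963 to 1190) in library 2 against 643 CPM (624 to 663), so that the libraries lay on opposite sides. Xcl1 had log2 ratios of -0.23 and -0.01 in this gate, and whether that differs from the CD8 T gate was not tested.

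**Figure D3:**
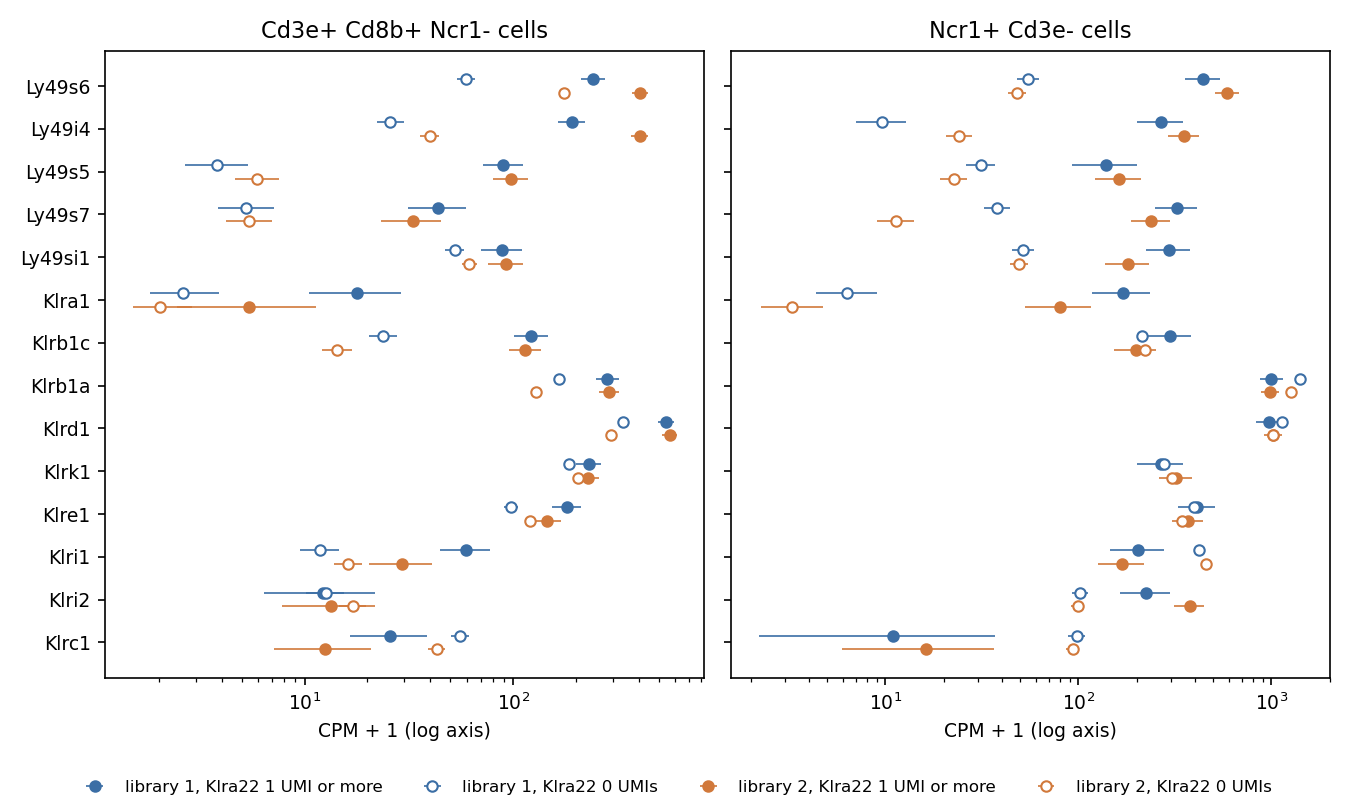
Levels of 14 receptor genes (y axis) as CPM plus 1 on a log axis (x axis) in the CD8 T gate (left) and the NK gate (right), with filled points for cells with Klra22 and open points for cells without it; bars are exact 95% Poisson intervals. Ly49s6, Ly49i4, Ly49s5 and Ly49s7 lie higher with Klra22 in both gates and both libraries, and Klrc1 lies lower.

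Between libraries, most genes of the gated cells lay close together. Of 5591 genes at 20 CPM or more in either library, 27 (0.483%) were higher in library 2 past 2-fold and 47 (0.841%) lower, and the median log2 ratio of library 2 over library 1 was -0.02. The higher count was 50 with a pseudocount of 1 CPM, and the lower count was 28 without doublets, 81 without Mki67 or Top2a cells and 20 without cells with myeloid transcripts, while Cd3e-negative cells alone gave 146 and 238. Over all sizes, 2609 (46.7%) were higher in library 2, and the Poisson intervals of the libraries lay apart for 637 (11.4%). Since neither library could be tied to a group, this direction cannot be read as an effect of the patch.

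Fam111a, which encodes a protease acting at replication forks, had the highest ratio. It stood at 5.50 CPM (2.64 to 10.1) in library 1, from 8 cells, and 117 CPM (104 to 132) in library 2, from 111 cells, a log2 ratio of 3.04. The difference was also in cells without Klra22, with 10.7 and 138 CPM in the CD8 T gate and 4.40 and 92.9 CPM in the NK gate. Irf7, which drives interferon genes, was at 42.3 CPM (33.4 to 52.9) and 106 CPM (93.1 to 119), from 63 and 145 cells, and in cells without Klra22 at 45.5 and 94.6 CPM in the CD8 T gate and 53.7 and 109 CPM in the NK gate. Gzma stood at 157 CPM (139 to 176) and 386 CPM (362 to 411). In the Cd3e-only class Gzma stood at 140 and 151 CPM, with 124 and 1072 CPM in Ncr1-only cells and 349 and 1889 CPM in cells with neither transcript. The higher level of library 2 was thus found in the latter classes.

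Genes of cell division were all on the side of library 2. All 13 of the list at 20 CPM or more were higher there, 4 of them past 2-fold, with a median of 0.61. Mki67, a marker of cycling cells, stood at 101 CPM (86.5 to 116) and 213 CPM (195 to 232), Stmn1, a regulator of microtubules, at 151 and 322 CPM, and Top2a, a topoisomerase, at 27.5 and 72.4 CPM. A UMI of Mki67 or Top2a was in 17.4% of gated cells of library 1 (13.05 to 22.5) and 23.4% of library 2 (18.9 to 28.4), and at 1500 UMIs per cell in 7.31% (4.46 to 11.2) and 10.4% (7.33 to 14.3), with overlapping intervals. Few cells carried Top2a, 10 and 19, and the median of the list was 0.23 without cells that had Mki67 or Top2a. In Klra22-negative cells of the CD8 T gate, Mki67 stood at 170 and 257 CPM, Top2a at 60.4 and 102 CPM and Stmn1 at 276 and 488 CPM. The NK gate without Klra22 was mixed. Top2a was lower in library 2 there, at 52.3 CPM (45.7 to 59.6) and 34.8 CPM (30.4 to 39.6). Mki67 stood at 145 CPM (134 to 157) and 135 CPM (126 to 144), with overlapping intervals. Stmn1 was higher in library 2, at 203 CPM (189 to 217) and 264 CPM (252 to 277).

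Interferon and chemokine genes leaned to library 2. Of 15 type I interferon genes, 10 were higher in library 2 and 5 lower, with a median of 0.29, and 1, Irf7, lay past 2-fold. Ifi27 stood at 779 CPM (739 to 821) and 1364 CPM (1319 to 1411), and the antiviral gene Mx1 at 136 and 189 CPM. Ifit3 stood at 64.9 and 30.3 CPM and Bst2, which encodes tetherin, at 661 and 470 CPM, on the other side. Of 7 cytokine and chemokine genes, 6 were higher in library 2, with a median of 0.45. Xcl1 stood at 473 CPM (442 to 506) and 905 CPM (868 to 943), and Ccl4 at 2335 and 3184 CPM. Of the 2238 Xcl1 UMIs of library 2, 284 came from 1 cell. Tgfb1 stood at 451 and 389 CPM, the only 1 of the 7 that was lower. Of 15 genes of class I presentation, which supply Ly49 ligands, 14 were higher in library 2, with a median of 0.12 and none past 2-fold. Klra22-negative cells of the CD8 T gate had Ifi27 at 1169 and 1802 CPM, Mx1 at 133 and 194 CPM, Xcl1 at 109 and 202 CPM and Ccl4 at 3894 and 4961 CPM. Those of the NK gate had them at 663 and 1274, 124 and 208, 724 and 1298, and 2380 and 2783 CPM. The higher levels of these genes in library 2 were thus not limited to gated cells. Ccl3 went the other way in the CD8 T gate without Klra22, at 602 and 552 CPM.

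Genes that respond to TGF-beta leaned to library 1. Of 10 at 20 CPM or more, 9 were lower in library 2, with a median of -0.26 and none past 2-fold. Pmepa1, an inhibitor of the pathway that the pathway induces, stood at 183 CPM (164 to 204) and 93.0 CPM (81.4 to 106). Smad7, another such inhibitor, stood at 553 CPM (519 to 588) and 343 CPM (320 to 367), Skil, a repressor of the pathway, at 207 and 153 CPM, and Ldlrad4 at 47.3 and 24.3 CPM. The intervals of all 4 lay apart. Klra22-negative cells of the CD8 T gate had Pmepa1 at 230 and 87.7 CPM and Smad7 at 387 and 243 CPM. Itga4, an integrin chain used to enter tissues, stood at 263 and 152 CPM in gated cells, and Tigit, an inhibitory receptor, at 52.8 and 23.5 CPM.

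Other gene groups were spread about 0. The 16 cytotoxic granule genes had 8 on each side and a median of -0.03, with Nkg7 at 1397 and 1327 CPM, Gzmm at 1343 and 1416 CPM and Prf1 at 284 and 290 CPM. Of 12 NK markers, 6 lay on each side, with a median of 0.02, and of 12 T cell markers 9 were lower in library 2, with a median of -0.14. The 8 Ly49 genes had 4 on each side and a median of 0.02. Of the 17 signalling adaptors, 9 were lower in library 2, with a median of -0.08, among them Tyrobp and Fcer1g, while Hcst, the adaptor of NKG2D, stood at 879 and 910 CPM. Pdcd1, the checkpoint receptor PD-1, had 0 UMIs in both libraries, while Lag3 stood at 207 and 155 CPM and Ctla4 at 37.9 and 60.3 CPM. The 16 immediate early genes, which dissociation of tissue can induce, had a median of 0.09, with Fosb at 989 and 1295 CPM and Nr4a1, which T cell receptor signals induce, at 163 and 271 CPM.

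**Figure D4:**
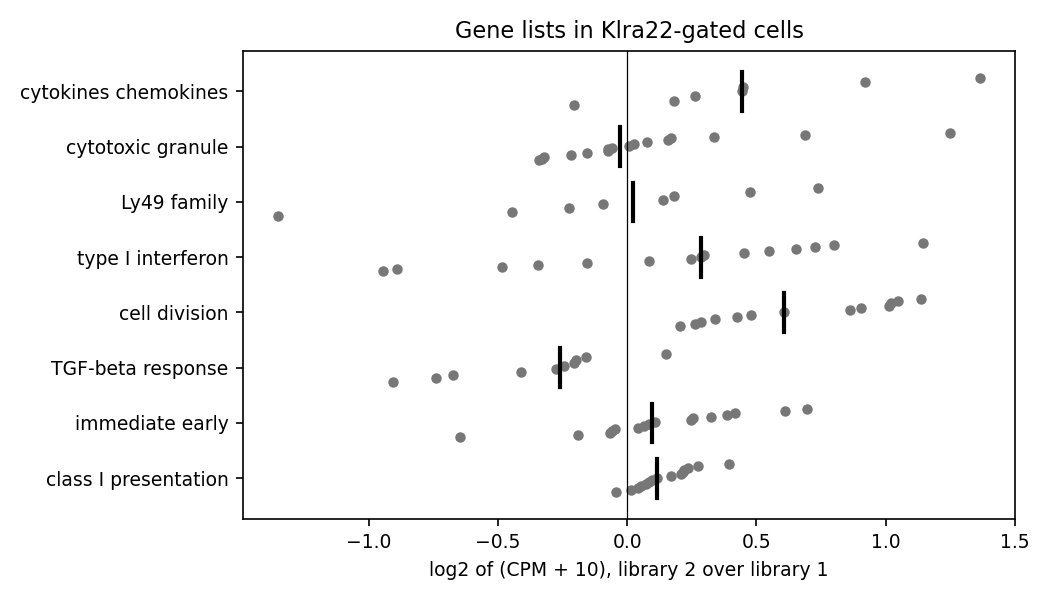
Log2 ratio of CPM plus 10, library 2 over library 1, in Klra22-gated cells (x axis) for genes at 20 CPM or more of 8 lists (y axis); each point is a gene and each bar the median of its list. The 13 cell division genes lie to the right of 0, and 9 of 10 TGF-beta response genes lie to the left.

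Transcripts of other cell types made up most of the genes with the largest ratios in gated cells. Genes known from myeloid cells were among those with the lowest ratios: Fabp4, Fn1, Vcan, Fcnb, Cxcl2, G0s2, Lyz2, Cd14 and S100a8, with log2 ratios between -1.73 and -2.83. Lyz2, the lysozyme of macrophages and neutrophils, stood at 2474 and 719 CPM, and 7 cells of library 1 and 5 of library 2 held at least 50% of its UMIs. Of the 148 Fabp4 UMIs of library 1, 86 came from 1 cell. Macrophage markers had 7 of 7 genes lower in library 2 (median -0.54) and neutrophil markers 4 of 4 (median -1.60). The rule capped S100a8 and S100a9, which are among the 4 neutrophil markers, and the C1q genes, which the macrophage list names. Levels of these capped genes are no finding. Dendritic cell markers had 4 of 4 genes higher in library 2 (median 1.30), with Cst3 at 298 and 818 CPM and the class II genes RT1-Ba at 273 and 631 CPM and RT1-Bb at 26.9 and 104 CPM. Of Ccl17, which marks dendritic cells, 2 cells held 50% or more of the 101 UMIs of library 2. Apart from Cst3, Ccl17, RT1-Da and RT1-Ba, the dendritic markers stayed under 20 CPM, Siglech and Xcr1 among them. Ccl1, a chemokine gene, stood at 31.9 and 97.9 CPM from 5 and 25 cells, with 121 of its 242 UMIs of library 2 in 1 cell.

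Markers of macrophages, neutrophils and dendritic cells made up 1% or more of the UMIs in 29 gated cells of library 1 (10.98%) and 26 of library 2 (7.90%). Scrublet called 21 gated cells of library 1 (7.95%) and 17 of library 2 (5.17%) doublets, against 4.07% and 6.82% of all passing cells. Without the cells with these markers, which left 235 and 303, the log2 ratio was 3.25 for Fam111a, 1.15 for Irf7, 1.25 for Gzma and 1.14 for Hist1h2an, and the medians were 0.56 for cell division, 0.34 for type I interferon, 0.34 for cytokines and chemokines and -0.40 for TGF-beta response. The log2 ratio was -0.43 for Cst3, -0.16 for RT1-Ba and 0.01 for RT1-Bb in those cells. Of the myeloid genes named above, Fabp4 had -2.55, Cxcl2 -1.72, Fn1 -1.58, Vcan -1.33 and Lyz2 -0.90. G0s2 had -0.54, Cd14 -0.24, S100a8 -0.01 and Fcnb 0.24. The median of the macrophage markers was -0.90, that of the neutrophil markers -0.01 and that of the dendritic markers -0.43. These lists chose the cells left out, and they hold Lyz2, G0s2, S100a8, Cst3 and RT1-Ba. Shifts of these medians and genes are thus partly set by that choice and are no finding. In the CD8 T gate without cells with myeloid transcripts, Ccl5 had log2 ratios of -1.37 and -1.19 with Klra22, Xcl1 of 1.49 and 1.55 and Magohb of 2.95 and 2.67. Between the libraries 71 barcode sequences were shared, 0 of them by gated cells of both, and 5 gated cells had a barcode sequence that the other library also held.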

How the data were processed

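The authors deposited 1 matrix of UMI counts, not normalized, which Cell Ranger 4.0.0 wrote per the file headers. The libraries were made with a 10x Genomics Single Cell 3′ kit per the labels' protocols, while for the genome build, annotation and cell calling the sources used here give nothing. The matrix's 32623 gene lines were summed to 26976 symbols. The matrix holds 14283 barcodes with 72506643 UMIs of library 1 and 15666 with 82802439 of library 2. A deposited table of 33756 barcodes shares 111 with the matrix under the same suffix and was used to assign none, so the libraries stand side by side without a group.

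Counts were summed per library and gate and divided by their total to CPM, with exact Poisson intervals. Ratios are log2 of CPM plus 10 over genes at 20 CPM or more, and 2-fold is the size rule. Shares have exact Clopper-Pearson intervals and were repeated with cells thinned to 1500 UMIs. Doublets were called with Scrublet in scanpy 1.11.5 at an expected share of 8%, kept here and left out as an alternative. Gated cells had 802 to 23558 UMIs in library 1 and 699 to 34922 in library 2. Python 3.11.15, numpy 2.4.6, scipy 1.17.1, pandas 2.3.3, biopython 1.88 and matplotlib 3.10.9 were used. The counting of genes past 2-fold was tested on simulated data.

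To be named, a gene needed 50 UMIs and 50 CPM in whichever library was higher, or, between sets of cells, in the higher set of each library, and a symbol that is no clone or locus number. Mitochondrial, ribosomal protein, haemoglobin and receptor segment genes were passed over. Named were the 10 highest and 10 lowest ratios between libraries, the same by the smaller size of both libraries in the NK gate, 8 of each between classes, every Ly49 gene with a UMI, and up to 6 members of each of 29 gene lists. Further genes were picked after their values were seen. Some genes that these rules name are not reported here. The members, lists and rules were chosen with earlier results of these data known. Alternatives were a minimum of 2 Klra22 UMIs, no doublets, 10% mitochondrial UMIs, 500 genes, a pseudocount of 1 CPM, no minimum level, other scaling, subsets of cells and a range of UMIs, and, chosen after seeing the data, cells without myeloid transcripts and a status at 2 UMIs.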

Additional observations from a re-analysis of the deposited data

Results flagged for a closer look

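Apoe, a lipid carrier made by macrophages, stood on opposite sides in the libraries when cells of the CD8 T gate with Klra22 were set against those without it. In library 1 it stood at 124 CPM with Klra22 against 672 CPM without it (log2 ratio -2.35), and in library 2 at 1094 CPM against 529 CPM (log2 ratio 1.04). The ratios differ by 3.39 on the log2 scale, and this difference was not tested. Of the 1633 Apoe UMIs of all gated cells in library 2, 1088 came from 1 cell.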

How the results depend on the processing

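With 1 library on each side, depth limits the status of a cell, and a Cd3e-negative cell may hold Cd3e that was not captured. A minimum of 2 Klra22 UMIs put 1.22% and 1.42% of cells in the gate, 82.0% and 79.2% of them with Cd3e. Thinned to 1500 UMIs, 1.02% and 1.22% of cells kept a Klra22 UMI within the limits, and the status of these cells alone was not counted. The 260 and 326 cells gated before thinning had, once thinned, Cd3e in 53.1% and 50.3%, Cd8b in 25% and 15.3% and Ncr1 in 7.31% and 8.90%. With a status of 2 UMIs or more, a choice made after seeing the data, Cd3e was in 68.9% and 68.7%, Cd8b in 30.7% and 28.6% and Ncr1 in 10.2% and 10.9%. Genes past 2-fold higher in library 2 numbered 50 with a pseudocount of 1 CPM and 146 in Cd3e-negative cells. Genes lower in library 2 numbered 28 without doublets, 238 in Cd3e-negative cells, 81 without Mki67 or Top2a cells and 20 without cells with myeloid transcripts, an alternative also added after seeing the data. In the CD8 T gate 27 genes were lower with 2 Klra22 UMIs, 13 with a pseudocount of 1 CPM, 25 in cells of 1500 to 8000 UMIs, where 53 were higher, and 10 without cells with myeloid transcripts. In the NK gate 60 and 49 were lower with 2 Klra22 UMIs and with a pseudocount of 1 CPM. Directions turned for Ccl1 with 2 Klra22 UMIs (-0.43), in Cd3e-negative cells (-3.02) and without Mki67 or Top2a cells (-0.37). In Cd3e-negative cells they also turned for Fabp4 (0.50), Cst3 (-0.31), the B cell list (-0.45) and the dendritic list (-0.25). Without cells with myeloid transcripts they turned for Fcnb (0.24), Cst3 (-0.43), RT1-Ba (-0.16), the B cell list (-0.57), the dendritic list (-0.43) and Apoe in the NK gate of library 2 (0.0691). Cst3, RT1-Ba, Apoe and the dendritic list were themselves used to choose the cells left out. The cause was not tested. No paired analysis was possible because each group has 1 sample and no test was made.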

Other observations

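Klra22-negative cells of the CD8 T gate held Ly49s6 at 58.5 CPM in library 1 and 174 CPM in library 2, while Klra22-negative cells of the NK gate held it at 54.0 and 47.0 CPM. Of all cells in the CD8 T gate, 25.9% (23.4 to 28.6) and 42.5% (40.1 to 44.9) had a Ly49s6 UMI, and at 1500 UMIs per cell 11.2% (9.45 to 13.2) and 20.4% (18.5 to 22.5). Klra22 shares of the same gate were 4.91% and 4.11% after thinning. In neutrophils Ly49s6 was in 0.431% and 1.19% of cells after thinning and in macrophages in 0.488% and 1.68%. Whether the libraries differ was not tested.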
